A study of Mus musculus with 50 samples.

Results

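The results concern the variants of 4 genes, Pim1, Cd83, Cxcr4 and Socs1, in exomes of IL6Myc mouse tumours. Every row of the deposited variant table that names 1 of these genes and gives a single alternate allele was taken, whatever its annotated effect, which gave 18 of 25624 rows. The genes were chosen by their private calls in these same tumours, so the numbers of variants and carriers are a description and carry no test. All tumours come from mice of the genotype IL6Myc, are labelled as malignant plasma cells of the mesenteric lymph node, and stand for 1 mouse each. The labels list 45 tumours and 5 kidneys of wild-type Balb/c mice. Calls of 44 tumours were analysed, while calls for tumour 4 and for kidney are not part of the work here. Private calls were therefore not compared with normal tissue. The labels give no promoter for the transgenes, no age and no strain background of the IL6Myc mice. The data are DNA calls, so the labelled cell type could not be checked against expression markers. The table gives the percent of reads with the alternate base and no read depth, so depth per tumour is unknown and a single value has no interval here.

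The 4 genes belong to the class of off-target genes of activation-induced deaminase (AID). AID turns cytosine into uracil in transcribed antibody genes of germinal centre B cells, and the changes gather downstream of the transcription start. Copying the uracil gives C-to-T changes, and repair of it gives further changes at C:G and A:T pairs. AID prefers a cytosine that closes the triplets AAC, AGC, TAC or TGC. Such aberrant hypermutation of genes outside the antibody loci is known from B cell lymphomas. Plasma cells descend from B cells that may have passed through this process.

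Positions below are counted in bases along the transcript from the annotated gene start, and the stretches that end at those starts are shown to fix the zero of that scale. RefSeq start sequences of build GRCm38.p6, the assembly that mm10 names, matched Pim1, Cxcr4 and Socs1, that is 3 of the 4 genes, and not Cd83. Each run below has 30 bases, 5′ to 3′ on the transcript's strand, and the capital marks the base at position 0. They lie at chr17:29490756-29490785 on the plus strand, chr1:128592299-128592328 on the minus strand and chr16:10785536-10785565 on the minus strand.
Pim1: tttactcctggcggcggggcgagccgggcG
Cxcr4: ataaaagtccggttcgggccagaaacttcA
Socs1: tttaagagcctgatgcaggggcgggcagcA
The palindrome AGCT, an AID hotspot on both strands, was present in the Cxcr4 window from 250 bases before to 50 bases after the start and in none of the other 3 windows of these genes, against 77.6% of 32851 promoter windows of 300 bases. Pim1 has a further annotated start 2300 bases downstream of the first. No variant of the 4 genes lay in any of these windows, and every Pim1 variant lay between its starts. Most of each window lies upstream of the start, so the AGCT count does not describe the stretch that held the variants. GC content ran from 49% to 81.3% over the 4 windows, against a median of 52.7% over all promoter windows. The part of GC content was not tested.

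All 18 variants were single nucleotide variants (SNVs), and 17 of them were private, that is called in 1 tumour only. They made 19 calls in 13 of 44 tumours (29.5%, exact Clopper-Pearson 95% interval 16.8 to 45.2%, which covers counting error only). No tumour had calls in more than 1 of the 4 genes. Carriers per gene were few, from 2 to 7 of 44 tumours, so nothing is read from this. By annotated effect, 8 were missense, 4 synonymous, 4 intronic and 2 in a 5′ UTR. No stop, frameshift or essential splice site variant was listed in any of them.

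Pim1 (chromosome 17, 29490785 to 29496111, plus strand) encodes a serine/threonine kinase that supports survival and cooperates with Myc in mouse lymphoma. It had most of the variants, 11 SNVs, of which 10 were private, in 7 tumours (15.9%, interval 6.64 to 30.1%). Private SNVs in at least 7 tumours were listed for 0.0685% of 21900 protein-coding genes, 15 in all. The carriers were tumours 2, 10, 13, 15, 34, 36 and 43.

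The 9 Pim1 variants described singly lay between 430 and 1158 bases from the gene start, although the gene is 5327 bases long. Nearest the start were p.Lys24Asn (c.72G>C) at 9.52% of reads in tumour 34 and the synonymous c.129G>A at Leu43 at 26.4% in tumour 2. Over the whole gene, read shares ran from 4.69 to 35.3%.

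The intronic change c.190-39G>C, 696 bases in, was the only variant of the 4 genes seen in more than 1 tumour. Its read share was 18.3% in tumour 13 and 6.52% in tumour 34, and both tumours also had private Pim1 SNVs. The next stretch held p.Ile66Leu (c.196A>C) at 5.88% in tumour 13 and the intronic c.240+30A>T at 4.69% in tumour 15. Downstream of it lay p.Pro81Ser (c.241C>T) at 11.1% in tumour 13 and the synonymous c.291C>T at Ser97 at 35.3% in tumour 43, the highest share in Pim1. The most distant changes were the synonymous c.516C>T at Asn172 and c.519C>T at Ile173, both in tumour 10, at 29.6% and 26.7%. Of the 10 private SNVs, 4 were missense and 4 synonymous.

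Several tumours held more than 1 Pim1 call close together. This was so in 4 of the 7 carriers. In tumour 10 the pair at Asn172 and Ile173 was 3 bases apart with read shares of 26.7% and 29.6%. In tumour 13 the 3 calls spanned 184 bases and ran from 5.88 to 18.3%, and in tumour 34 the pair was 266 bases apart, with 6.52% and 9.52%. The table does not say whether such changes sat on the same molecule.

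**Figure D1:**
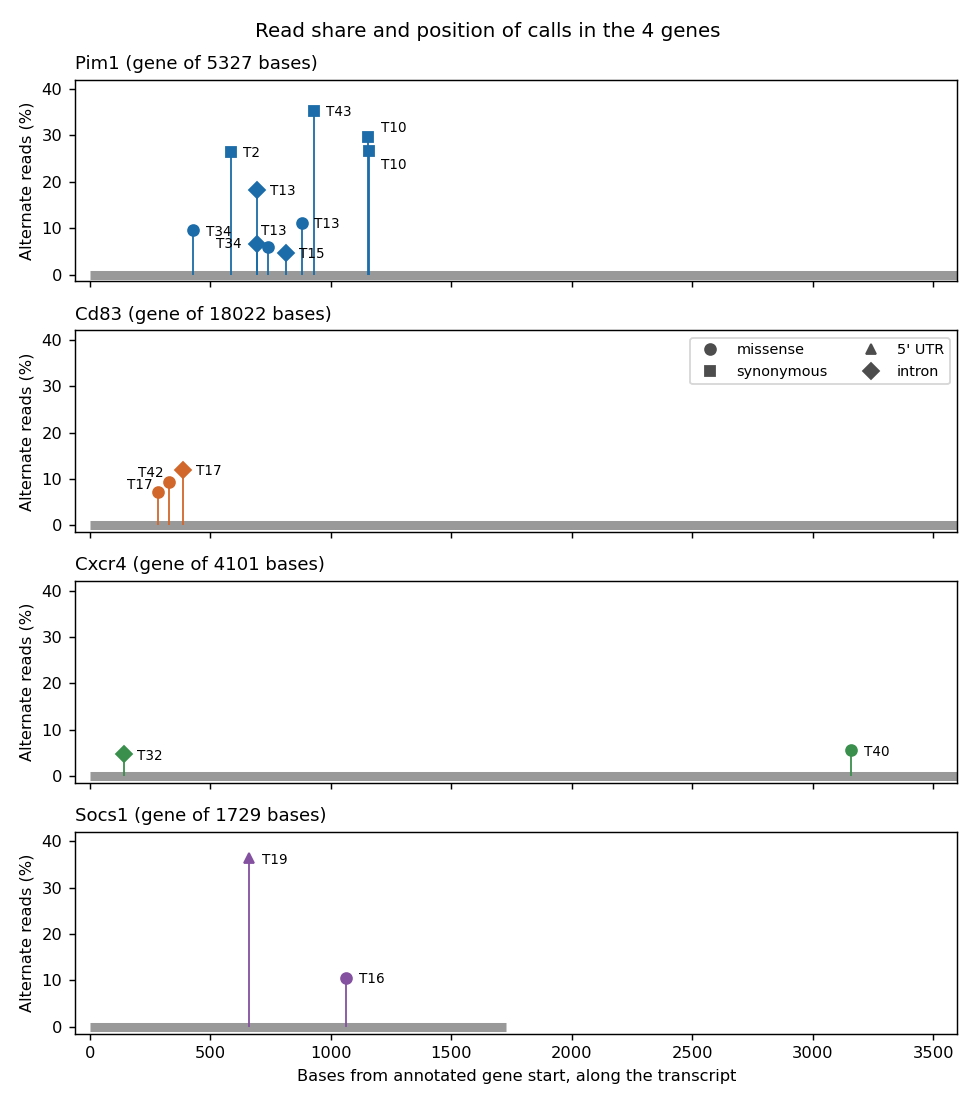
Each symbol is 1 of the 17 calls described singly, placed by bases from the annotated gene start along the transcript (x axis) and by the percent of reads with the alternate base (y axis), with T and a number for the tumour, symbol shape for the effect, and a grey bar for the gene, which runs on past the right edge in Pim1, Cd83 and Cxcr4. Pim1 calls sit between 430 and 1158 bases, Cd83 calls between 283 and 388, and 1 Cxcr4 call stands apart at 3160.

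Cd83 (chromosome 13, 43785112 to 43803133, plus strand) encodes a surface glycoprotein of activated B cells and dendritic cells that stabilises MHC class II. It had 3 private SNVs in 2 tumours (4.55%, interval 0.555 to 15.5%). Private SNVs in at least 2 tumours were listed for 4.45% of 21900 protein-coding genes. Although the gene spans 18022 bases, its 3 calls lay within 105 bases, from 283 to 388 bases from the start. Tumour 17 held p.Cys29Trp (c.87C>G) at 7.14% and the intronic c.159+33C>G at 12%, which mark the ends of that stretch, and tumour 42 held p.Leu45Phe (c.133C>T) between them at 9.3%. All 3 were changes at a cytosine of the transcript's strand, and all were at low read shares.

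Cxcr4 (chromosome 1, 128588199 to 128592299, minus strand) encodes the receptor of the chemokine CXCL12, which holds plasma cells in the bone marrow. It had 2 private SNVs in 2 tumours. The intronic c.21+34G>A lay 144 bases from the start, at 4.71% of reads in tumour 32. The missense change p.Tyr262Asn (c.784T>A) lay 3160 bases from the start, at 5.56% in tumour 40, and was the only variant of the 4 genes beyond 2 kb. Both are among the 3 lowest read shares of the 19 calls.

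Socs1 (chromosome 16, 10783808 to 10785536, minus strand) encodes an inhibitor of JAK kinases, which carry the signal of interleukin 6 and other cytokines. It had 2 private SNVs in 2 tumours. The change c.-3A>T in the 5′ UTR lay 662 bases from the start and had a read share of 36.4% in tumour 19, the highest of all 19 calls. The missense change p.Gly134Asp (c.401G>A) lay 1065 bases from the start, at 10.5% in tumour 16. Socs1 is 1729 bases long, so any variant in it lies within 2 kb of the start.

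Of the 17 private SNVs of the 4 genes, 16 (94.1%) lay within 2 kb of the gene start. Among private SNVs of all other genes outside Myc and the antibody loci, 1020 of 7497 with a known start did so (13.6%). Gene length bears on this share, and capture of exons does too. In other genes of 1729 to 18022 bases, the span range of the 4 genes, it was 28.9% of 1833 SNVs, and in other genes from 1729 bases to 6 kb it was 56.8% of 551. In Myc it was 34% of 53. Apart from 1 each at 4203 and 4359 bases, the private Myc SNVs beyond 2 kb lay between 2226 and 2864 bases. The Myc share thus depends on where the window ends. Within 1 kb lay 14 of the 18 SNVs of the 4 genes, and the median distance was 718.5 bases. These shares are over variants, which are not replicates, and were not tested.

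Few genes had private SNVs near their start in several tumours. Private SNVs within 2 kb of the start in at least 7 tumours were listed for 0.0109% of 18398 protein-coding genes with a known strand, and these 2 genes were Myc, in 12 tumours, and Pim1, in 7. The corresponding share for at least 2 tumours was 0.413%, or 76 genes, and Cd83 and Socs1 were among them. Cxcr4 had 1 such tumour. As the genes were chosen for these calls, this places them in the table and supports nothing further.

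**Figure D2:**
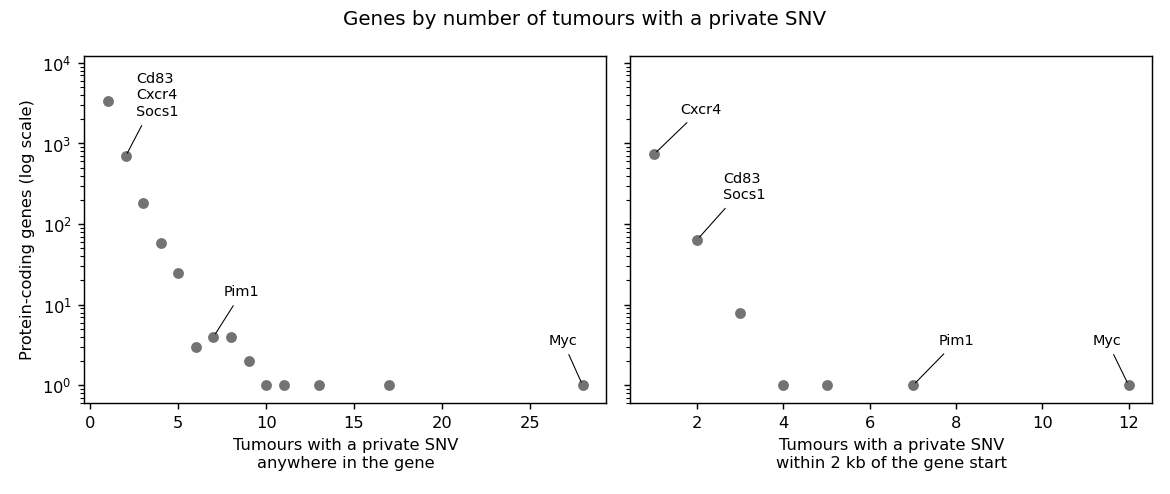
Each point gives the number of protein-coding genes (y axis, log scale) with private SNVs in the number of tumours on the x axis, counted over the whole gene (left) or within 2 kb of the gene start (right), and lines name the point that holds each gene. Pim1 shares its place at 7 tumours with other genes on the left, and stands alone at 7 tumours on the right, where Myc is at 12.

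Changes at C:G pairs made up 13 of the 17 private SNVs (76.5%), against 66.0% of 53 in Myc, 43.8% of 283 in the antibody loci and 53.7% of 9550 other private SNVs. C-to-T changes, named from the pyrimidine, were the most frequent class with 9 SNVs (52.9%). That class made up 35.8% in Myc, 25.4% in the antibody loci and 29.6% of other private SNVs. C-to-G changes followed with 4 SNVs (23.5%, against 6.21%), then T-to-A with 3 (17.6%, against 6.18%) and T-to-G with 1. No C-to-A and no T-to-C change was listed, classes that made up 17.9% and 24.9% of other private SNVs. Transitions came to 52.9%, close to 52.8% in Myc, 53.0% in the antibody loci and 54.5% elsewhere. With 17 SNVs from 13 tumours these shares are coarse, and they were not tested. On the transcript's strand, 8 of all 18 SNVs changed a C, 6 a G, 3 an A and 1 a T.

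**Figure D3:**
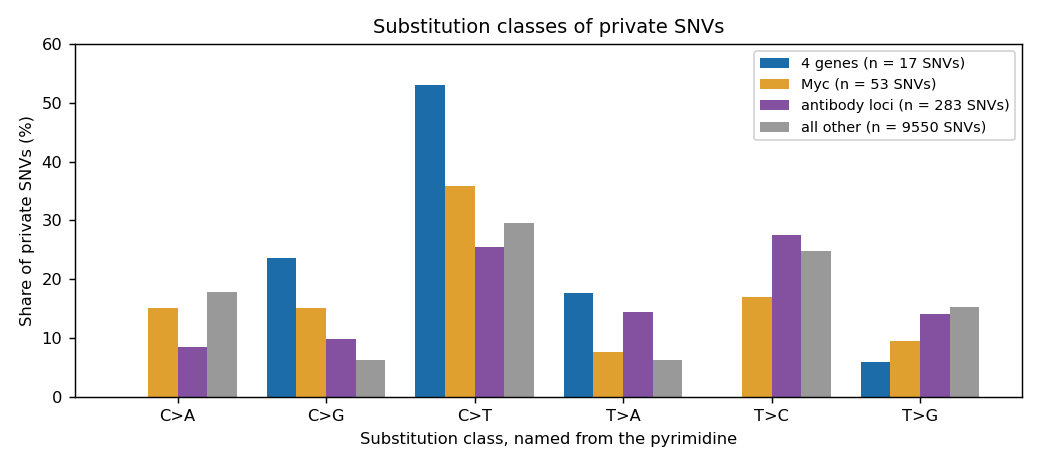
Bars give the share of private SNVs (y axis, percent, from 0) in each of 6 substitution classes named from the pyrimidine base (x axis), for the 4 genes together, Myc, the antibody loci and all other private SNVs; each bar is a share over variants and has no error bar. The 4 genes have bars in C>G, C>T, T>A and T>G only, with C>T at 52.9%.

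The genome sequence around most sites was not used here, but the written residue fixes the codon where a change hits a third-position C, serine apart. This look at the context was added after the calls were seen. In the 4 genes 3 such SNVs had a known codon, and 2 of them changed the last base of an AID triplet. These were Asn172 of Pim1, codon AAC, in tumour 10, and Cys29 of Cd83, codon TGC, in tumour 17. The other, at Ile173 of Pim1, changed ATC. Ser97 of Pim1 has AGC or TCC, which the table does not resolve. In Myc 4 of 6 private SNVs with a known codon were in such triplets, at Asn108, Tyr168 and Cys187, against 55 of 225 other private SNVs (24.4%). The counts for the 4 genes are too small to read a difference from.

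Read shares of the 17 private SNVs had a median of 11.1% (quartiles 7.14 and 26.9%), with 7 of them below 10% and 7 at 20% or more. No call of the 4 genes reached 50%. The median was 17.8% for Myc, 14.5% for the antibody loci and 18.5% for other private SNVs, whose upper quartile was 43.8%. The median share of all private SNVs was highest in tumours 2, 5 and 1, at 45.5%, 44.4% and 36.4%, while the median tumour had 15.2%. They gave 1411, 741 and 361 of the 9550 other private SNVs. Tumours 11, 3 and 9 gave more than tumour 1, with 472, 366 and 366. All these tumours also weigh in the position and class shares of other private SNVs above, and their part was not tested. The genes differed among themselves. In Pim1 6 of 10 private SNVs were at 20% or more, with a median of 26.5%, in Socs1 1 of 2, and in Cd83 and Cxcr4 none. Inherited heterozygous variants centre near 50%. With read depth unknown and no normal tissue compared, a single share cannot be placed against that level, and inheritance was not tested. The share of tumour cells in each sample and false calls at low shares could both move these values, and their part was not tested.

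Myc shares of the same tumours were set beside these shares. The genotype name IL6Myc includes Myc, and whether transgene copies add reads to a Myc share is not known here. The Myc shares are therefore no fixed scale. In tumour 43 the Pim1 share of 35.3% stood beside Myc shares of 24.4 to 32.8%, and in tumour 10 Pim1 shares of 26.7% and 29.6% stood beside Myc shares of 17.9 and 23.1%. In tumour 19 the Socs1 share of 36.4% lay inside the range of its Myc shares, 17.8 to 40.9%. In tumour 2 the Pim1 share of 26.4% described above lay over all its Myc shares, which ran from 2.53 to 24.2%. In tumour 13, by contrast, Myc stood at 21.2% and Pim1 at 5.88 to 18.3%. In tumours 15, 34, 17, 42 and 32 the highest share of either gene was 12.1%. Shares were thus alike in some tumours and apart in others.

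**Figure D4:**
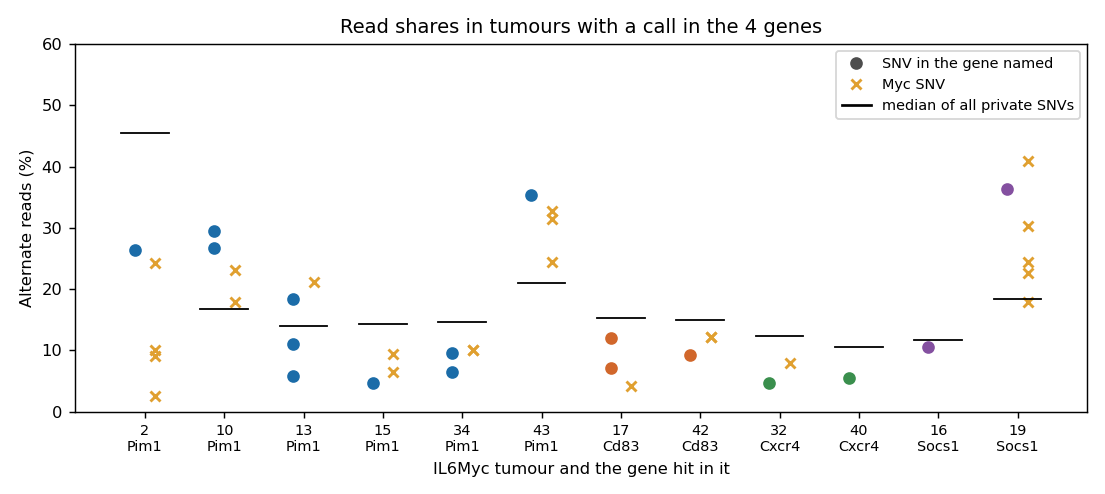
For each of the 12 tumours with a call described singly (x axis, with the gene hit), dots give the read share of SNVs in that gene, crosses that of every Myc SNV and the line the median of all private SNVs of the tumour (y axis, percent). Tumours 16 and 40 have no Myc cross, and the dots of tumour 13 lie below its cross at 21.2%.

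Carriers of Pim1 SNVs all had private Myc SNVs. Private Myc SNVs were called in 28 of 44 tumours (63.6%, interval 47.8 to 77.6%). They were called in 7 of the 7 Pim1 carriers, which make up 25% of the Myc carriers (two-sided Fisher's exact test over tumours, p = 0.037). Pim1 alone had the 3 carriers needed, so 1 test was made. Pim1 was chosen with its calls in these tumours known, so this p describes the overlap and supports nothing further. The p rose past 0.05 under all 6 alternatives, to 0.0857 when variants in up to 3 tumours were counted, to 0.0692 without tumour 2 and to 0.581 with a minimum read share of 20%, where 2 of 4 Pim1 carriers had a Myc SNV. The Pim1 carriers held 1430, 273, 312, 238, 192, 126 and 145 private SNVs in order of tumour number, against a median of 148 and a range of 62 to 1430 over all 44 tumours. Tumour 2 has the most private SNVs of all. The part of a tumour's total in the overlap was not tested.

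For the other genes the carriers are too few for a test. Both Cd83 carriers had a private Myc SNV. So did 1 of the 2 Cxcr4 carriers, tumour 32, and 1 of the 2 Socs1 carriers, tumour 19, which had 5. Over the 4 genes, 11 of 13 carriers had one (84.6%), which is 39.3% of the Myc carriers, and the exceptions were tumours 16 and 40.

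Private SNVs of the antibody loci Igh, Igk and Igl were called in 41 of 44 tumours, so overlap with them says little. All 13 carriers had at least 1. For Pim1 the two-sided Fisher's exact test gave p = 1 at full overlap, so it could not have shown co-occurrence. By locus, Igk SNVs were called in 13 of the 13 carriers and in 38 of 44 tumours, Igh SNVs in 9 and in 26, and Igl SNVs in 11 and in 22. All 7 Pim1 carriers had an Igl SNV, a comparison picked after the values were seen and not tested. The Pim1 carriers held 14, 4, 7, 12, 12, 12 and 5 antibody SNVs in order of tumour number, against a median of 7 and a range of 0 to 15 over all tumours. The Socs1 carrier tumour 19 had the most, 15, and the Cxcr4 carrier tumour 40 had 1.

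**Figure D5:**
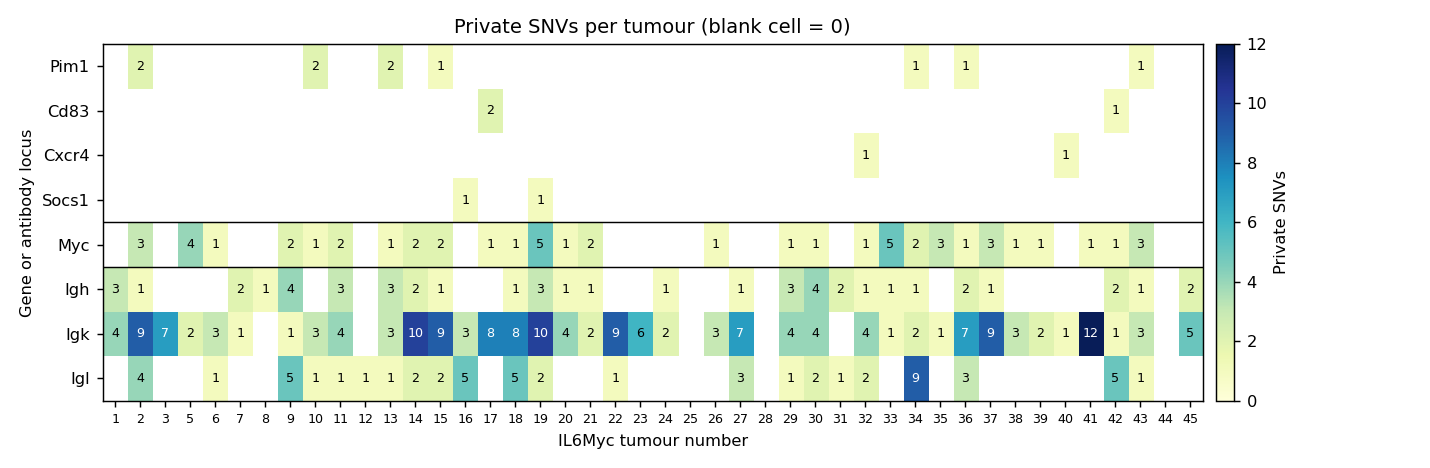
Each column is a tumour and each row a gene or antibody locus, and the number and colour of a cell give its private SNVs, a blank cell meaning 0. Every column with a Pim1 number also has a Myc and an Igl number, and no column has numbers in more than 1 of the upper 4 rows.

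Of 58 listed AID target genes, 57 matched a RefSeq mouse gene by symbol or synonym, and 23 of these had a private SNV, against 19.9% of all 21900 protein-coding genes. Without the 4 genes and Myc, 18 of 52 had one (34.6%), and the median number of tumours was 0, as over all protein-coding genes. The list was drawn up with earlier results of these tumours known. Private SNVs in at least 2 tumours were listed for 3 of the 52, against 4.45% of all 21900 protein-coding genes. All 3 were linker histone genes, whose proteins bind DNA between nucleosomes. Hist1h1c had 5 SNVs in 5 tumours, of which 4 had a call in 1 of the 4 genes. Hist1h1d had 6 in 4 tumours, 2 of them such carriers, and Hist1h1e had 2 in tumours 2 and 10, both Pim1 carriers. Over all 44 tumours, 13 had a call in 1 of the 4 genes and 7 were Pim1 carriers. These overlaps were not tested.

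The genes most like the 4 in their carriers were ranked by the Jaccard index, the number of shared carriers over the number of tumours with either, among 296 genes outside the antibody loci with private SNVs in at least 3 of the 44 tumours. Nav1 came first with 0.412 (7 of its 11 carriers), then Myc with 0.367 (11 of 28), 4932438A13Rik with 0.333 (5 of 7), Ppp1r12b with 0.308 (4 of 4) and Flg2 with 0.294 (5 of 9). The index favours genes with many carriers, and nothing is read from it.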

How the data were processed

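Exomes of 44 IL6Myc tumours were described from 1 deposited variant table. Per the labels' protocols, a Qiagen column kit gave the DNA, and Agilent's 50 Mb mouse exon baits captured it. Variants were called with GATK on mm10, per the submitters' processing notes. For the aligner, the filters and the annotation tool, nothing is given in the sources used here. Deposited cells hold a percent, taken to be the share of alternate reads, or a dot, which can mean the reference base or too few reads. The deposited count column gives the tumours called per row.

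The 199 rows with several alternate alleles were left out, and none names the 4 genes. Gene starts and antibody loci came from RefSeq GRCm38.p6. Strands came from the RefSeq start sequences or, without one, from the coding change as written; in 3823 genes with both, all agreed. Tumour numbers follow accession order. The position, class and carrier steps recovered 200 of 200 variants planted in simulated rows. The same gene starts and strands placed these variants, so this checks the computation and not the annotation. Named are the 4 genes, Myc, listed AID target genes with private SNVs in at least 2 tumours and the 5 genes most alike in carriers. Results for 2 Pim1 variants and 1 listed gene are not reported singly here. Members and lists were chosen with earlier results of these data known. Python 3.11.15 with pandas 2.3.3 and scipy 1.17.1 was used.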

Additional observations from a re-analysis of the deposited data

How the results depend on the processing

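Of 66 values under alternatives, 48 kept their side of the limit set for them. The limit was a fixed ratio to the main value for counts and its exact 95% interval for shares. For the median it was the standard deviation over calls, and for Fisher's exact test a p of 0.05. A minimum read share of 20%, which leaves fewer calls by construction, gave 4 tumours for Pim1, 0 for Cd83, 0 for Cxcr4, 1 for Socs1 and 5 for any of the 4 genes, with 7 SNVs, 100% of them within 2 kb of the start, and 21 tumours with a private SNV in a listed AID target gene against 34. A minimum of 10% gave 1 tumour for Cd83, 0 for Cxcr4 and 8 for any, and a median read share of 26.8%. The overlap of Pim1 with Myc carriers (p = 0.037, two-sided Fisher's exact test) gave p = 0.0857 with variants in at most 3 or in any number of tumours, 0.149 and 0.581 with minimum read shares of 10% and 20%, 0.0743 in tumours titled 1501 or higher, and 0.0692 without tumour 2, an alternative added after seeing the data. Insertions and deletions, rows with several alleles, rows with 1 gene only and windows of 1 or 3 kb moved no value past its limit. No variant of the 4 genes was an insertion or deletion, had several alleles or named another gene. Those settings therefore could not change any value, and their results are among the 48. None lay between 2 and 3 kb from the start, so the 3 kb window was bound to give the same share. The 1 kb window gave 76.5%. Depth is unknown, so low read shares cannot be weighed. No paired analysis was possible because the tumours and kidneys come from mice of different genotypes and the kidneys were not analysed here.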
